A study of Mus musculus with 8 samples.

Results

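B cells and plasma cells were followed in the mouse aorta through 9 genes, taken by symbol from a table of 48587 gene symbols. The 9 genes were Ms4a1, Cd22, Cd79a, Cd79b and Pax5, which mark B cells, and Ighm, Igkc, Jchain and Mzb1, which carry or serve antibody production. RNA was sequenced from the whole aortic tree. Wild-type (WT) mice, described as litter controls, and mice labelled as a Tet2 knockout specific to vascular smooth muscle cells (VSMC) were each given vehicle or vitamin D (VitD). Each of the 4 groups had 2 libraries. They are named here WT vehicle, WT VitD, Tet2KO vehicle and Tet2KO VitD, with the library number 1 or 2 from the labels. The sources used here do not name the Cre line, the dose or duration of VitD, the age of the mice or the number of mice in a library. Whether the 2 libraries of a group are from different mice is not stated, so the p-values measure the spread between libraries, which may be technical.

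B cells carry a membrane antibody, the B cell receptor, which signals through the Cd79a and Cd79b chains and is restrained by coreceptors such as CD22. An antibody joins heavy chains to kappa or lambda light chains, and each chain has a constant region and a variable region. The variable region holds a variable segment, which recombination in the B cell joined to other short gene segments. All descendants of a B cell keep its joined segments, and descendants that mature into plasma cells transcribe them at very high levels. In large arteries, B cells and plasma cells are found mostly in the adventitia and the surrounding fat.

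The libraries held 15679274 to 22332149 counts assigned to genes. Smooth muscle markers (Acta2, Myh11, Tagln, Cnn1, Smtn) summed to between 14710 and 29130 CPM (counts of a gene relative to the library's total, scaled with edgeR's trimmed mean of M-values, TMM). Tet2 itself was at 35.8 and 32.2 CPM in WT vehicle, 18.3 and 20.04 in WT VitD, 42.0 and 35.2 in Tet2KO vehicle, and 26.6 and 37.6 in Tet2KO VitD. Counts over the whole gene were therefore not lower in the libraries labelled Tet2KO, and "Tet2KO" is used below as a label. Whether a deletion of part of the gene in smooth muscle alone would lower such counts was not tested. The sources used here do not name the exons removed, so the label could not be checked from these counts. Library names carried numbers in a lower range in 5 libraries and in a higher range in the other 3, which were both WT VitD libraries and Tet2KO VitD library 1. In WT, the range and VitD cannot be told apart. Tet2KO VitD was the only group with both ranges. A covariate for the range, used below, therefore rests on the difference between the libraries of that group. Results with it in WT do not separate the range from VitD. WT vehicle library 1 also stood apart: its 12 T cell markers summed to 84.9 CPM against 13.0 to 38.9 in the other vehicle libraries, and its 8 thymocyte markers to 115.9 CPM against 4.22 to 38.0.

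All 9 genes were detected in every library, and all 9 passed the filter on low counts. None of the 9 passed the test in any comparison of the study (edgeR's quasi-likelihood test, Benjamini-Hochberg adjusted p under 0.05 over 16194 genes). Per kilobase of exon, the mean level over the 8 libraries was highest for Igkc, at 38.2 CPM per kb, and for Ighm, at 23.7 CPM per kb. Cd79a (1.69 CPM per kb), Cd79b (1.41) and Jchain (1.34) followed. Mzb1 (0.367), Cd22 (0.277), Ms4a1 (0.193) and Pax5 (0.108) were lower. Igkc spread from 9.46 to 99.1 CPM per kb and Ighm from 12.0 to 48.2, so their order was not separated beyond the spread between libraries, and neither was the order of Cd79a, Cd79b and Jchain. The receptor and identity genes had few counts: 11 to 39 per library for Ms4a1, 11 to 43 for Cd22, 28 to 67 for Cd79a, 16 to 70 for Cd79b and 4 to 28 for Pax5. Ighm had 343 to 1875 counts and Igkc 76 to 944, against 15 to 117 for Jchain and 3 to 14 for Mzb1. The genes lie on build mm10 (GENCODE M21) at chr19:11249675-11266241 (Ms4a1), chr7:30865402-30880342 (Cd22), chr7:24897381-24902197 (Cd79a), chr11:106311341-106314762 (Cd79b) and chr4:44524757-44710487 (Pax5), and at chr12:113418558-113422730 (Ighm), chr6:70726435-70726966 (Igkc) and chr5:88519809-88527891 (Jchain). In whole tissue, fewer cells of a type and less RNA per cell cannot be told apart.

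**Figure D1:**
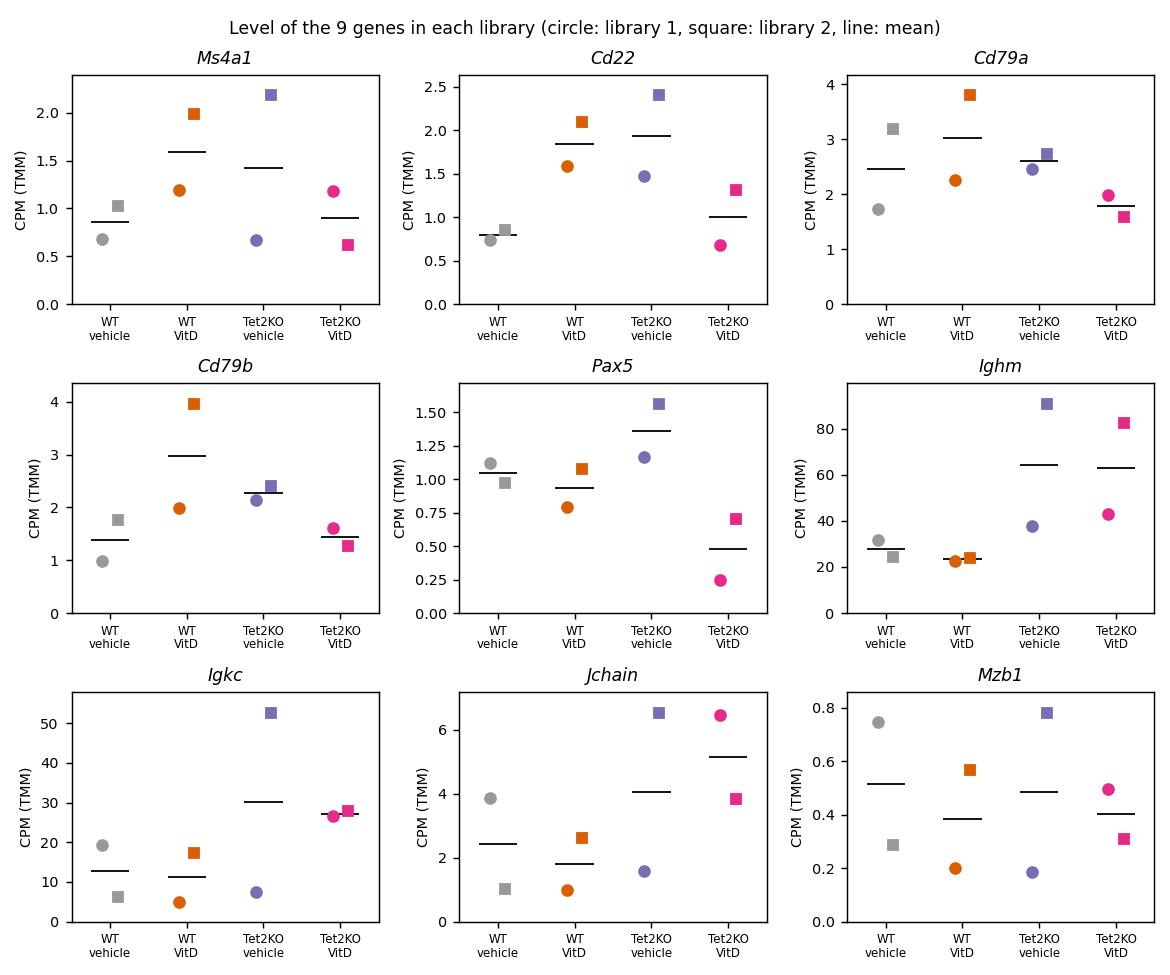
Level of each of the 9 genes in CPM (vertical axes, each starting at 0) in the 2 libraries of each group (circle, library 1; square, library 2; line, mean). Ighm is higher in all 4 libraries labelled Tet2KO than in all 4 WT libraries, and Cd22 and Cd79b are higher with VitD in WT and lower with VitD in Tet2KO.

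The membrane side of the B cell receptor was described first. Cd79a, the receptor's signalling alpha chain, was at 1.74 and 3.19 CPM in WT vehicle, 2.25 and 3.79 in WT VitD, 2.45 and 2.74 in Tet2KO vehicle, and 1.99 and 1.58 in Tet2KO VitD. The WT groups overlapped and the Tet2KO VitD libraries were below both Tet2KO vehicle libraries. The log2 fold change with VitD was 0.29 in WT (SE 0.450, adjusted p = 0.659, edgeR) and -0.54 in Tet2KO (SE 0.457, adjusted p = 0.597). Cd79b, the beta chain of the same pair, was at 0.994 and 1.77 CPM in WT vehicle, 1.99 and 3.96 in WT VitD, 2.15 and 2.40 in Tet2KO vehicle, and 1.61 and 1.28 in Tet2KO VitD. VitD and vehicle libraries did not overlap in either genotype, with VitD higher in WT and lower in Tet2KO. The log2 fold change of Cd79b was 1.104 in WT (95% interval -0.02 to 2.23, adjusted p = 0.138, edgeR) and -0.66 in Tet2KO (-1.78 to 0.46, adjusted p = 0.560).

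Cd22, an inhibitory coreceptor that binds sialic acid, had the same arrangement. It was at 0.746 and 0.854 CPM in WT vehicle, 1.59 and 2.09 in WT VitD, 1.47 and 2.40 in Tet2KO vehicle, and 0.683 and 1.32 in Tet2KO VitD. Both WT vehicle libraries were low and both WT VitD libraries were high, whereas in Tet2KO both VitD libraries lay below both vehicle libraries. The log2 fold change with VitD was 1.20 in WT (95% interval -0.01 to 2.40, adjusted p = 0.134, edgeR) and -0.93 in Tet2KO (-2.10 to 0.24, adjusted p = 0.451). The difference between genotypes in the VitD effect is given with the comparison of genotypes.

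Ms4a1, which encodes the CD20 surface protein of mature B cells, was at 0.684 and 1.03 CPM in WT vehicle, 1.19 and 1.98 in WT VitD, 0.675 and 2.18 in Tet2KO vehicle, and 1.18 and 0.616 in Tet2KO VitD. The WT groups did not overlap, with VitD higher, and the Tet2KO groups overlapped. Its log2 fold change was 0.89 in WT (adjusted p = 0.360, edgeR) and -0.69 in Tet2KO (adjusted p = 0.647). Pax5, the transcription factor that holds B cell identity and is switched off in plasma cells, was at 1.12 and 0.968 CPM in WT vehicle, 0.794 and 1.08 in WT VitD, 1.17 and 1.56 in Tet2KO vehicle, and 0.248 and 0.704 in Tet2KO VitD. The Tet2KO VitD libraries were the lowest 2 of the 8, the first of them resting on 4 counts. The log2 fold change of Pax5 with VitD in Tet2KO was -1.46 (95% interval -2.83 to -0.10, unadjusted p = 0.0387, adjusted p = 0.351 in edgeR), against -0.15 in WT (-1.49 to 1.18). It was -0.94 without Tet2KO VitD library 1 and -2.42 without Tet2KO VitD library 2.

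The antibody genes varied more. Ighm, the mu heavy chain constant region used by IgM, was at 31.6 and 24.3 CPM in WT vehicle, 22.7 and 24.1 in WT VitD, 37.9 and 90.9 in Tet2KO vehicle, and 43.2 and 82.5 in Tet2KO VitD. The 4 WT libraries lay close together and below all 4 Tet2KO libraries, and library 2 of each Tet2KO group was the higher of its group. The mean was 27.9 ± 5.13 CPM (SD, n = 2) in WT vehicle and 64.4 ± 37.4 CPM (SD, n = 2) in Tet2KO vehicle. The WT VitD libraries lay just below the WT vehicle libraries and the Tet2KO groups overlapped, with log2 fold changes of -0.25 in WT (SE 0.414) and -0.03 in Tet2KO (SE 0.405).

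Igkc, the constant region of kappa light chains, was at 19.3 and 6.27 CPM in WT vehicle, 5.03 and 17.3 in WT VitD, 7.43 and 52.7 in Tet2KO vehicle, and 26.6 and 27.9 in Tet2KO VitD. The 2 libraries of a group differed by more than the group's mean in all groups but Tet2KO VitD. Jchain, which joins IgM and IgA into polymers and is abundant in plasma cells, was at 3.85 and 1.03 CPM in WT vehicle, 0.993 and 2.60 in WT VitD, 1.60 and 6.53 in Tet2KO vehicle, and 6.46 and 3.83 in Tet2KO VitD. Mzb1, a helper of antibody folding in the endoplasmic reticulum, was at 0.746 and 0.285 CPM in WT vehicle, 0.199 and 0.566 in WT VitD, 0.184 and 0.782 in Tet2KO vehicle, and 0.497 and 0.308 in Tet2KO VitD. In both WT groups and in Tet2KO vehicle, Jchain and Mzb1 were higher in the library where Igkc was higher, and VitD and vehicle libraries overlapped in each genotype for all 3 genes. The log2 fold changes of Igkc, Jchain and Mzb1 with VitD lay between -0.42 and 0.33 in the 2 genotypes, with standard errors of 0.765 to 0.900.

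Across the 8 libraries the antibody genes and the receptor genes followed different profiles. Igkc and Jchain had a Pearson r of 0.96 on log2 CPM, and Cd79a and Cd79b an r of 0.86. Pairs among Ms4a1, Cd22, Cd79a, Cd79b and Pax5 had r from 0.18 to 0.86, pairs among Ighm, Igkc, Jchain and Mzb1 from 0.30 to 0.96, and the 20 pairs between the sets from -0.41 to 0.46. These are descriptions over 8 libraries that share depth and scaling. The 6 genes outside the lists with a profile most like the mean of the receptor set were Acot4 (r = 0.938), H2-Eb1 (0.933), Pard6b (0.923), Cybrd1 (0.921), H2-Aa (0.902) and Gata5 (0.897). H2-Eb1 and H2-Aa encode class II antigen presentation chains, which B cells share with macrophages and dendritic cells. For the antibody set they were Vangl1 (0.952), Erc1 (0.920), Tbx20 (0.920), Phf3 (0.917), Pak2 (0.916) and Scyl2 (0.915), with ranges over the libraries such as 14.2 to 19.2 CPM for Vangl1 and 11.8 to 22.3 CPM for Tbx20.

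The variable segments were read next, as a description of which antibody messages were present. The table holds 346 symbols of variable segments (183 heavy, 160 kappa and 3 lambda), of which 143 had a count in some library. In the WT libraries and in Tet2KO vehicle library 1 the counts were few. Those libraries held 19 to 65 heavy chain counts over 9 to 28 segments, and 44 to 132 light chain counts over 20 to 38 segments. The leading heavy segment of WT VitD library 1 held 7 of its 19 heavy counts (36.8%). The other 3 libraries labelled Tet2KO each had a heavy and a light segment that took a large share, and those segments differed from library to library. In Tet2KO vehicle library 2, Ighv7-1 held 268 of 329 heavy counts (81.5%, exact 95% interval 76.8 to 85.5) and Igkv7-33 held 592 of 726 light counts (81.5%, 78.5 to 84.3). In Tet2KO VitD library 1, Ighv1-82 held 75 of 125 heavy counts (60%, 50.9 to 68.7) and Igkv12-41 held 92 of 242 light counts (38.0%, 31.9 to 44.5). In Tet2KO VitD library 2, Ighv6-6 held 84 of 234 heavy counts (35.9%, 29.8 to 42.4) and Iglv1 held 207 of 459 light counts (45.1%, 40.5 to 49.8). The exact (Clopper-Pearson) intervals cover counting error only.

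The germline ends of these 6 segments are printed for reference. The libraries differed in counts over whole segments, and reads over these bases alone were not examined. Each line gives the last 90 bases of the GENCODE M21 transcript on build mm10, 5′ to 3′ on the minus strand, with the codon of the conserved cysteine before the third complementarity-determining region in capitals.
Ighv7-1: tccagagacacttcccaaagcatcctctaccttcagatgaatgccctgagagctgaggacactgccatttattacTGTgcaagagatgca
Igkv7-33: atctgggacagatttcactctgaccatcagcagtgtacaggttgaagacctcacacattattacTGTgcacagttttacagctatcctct
Ighv1-82: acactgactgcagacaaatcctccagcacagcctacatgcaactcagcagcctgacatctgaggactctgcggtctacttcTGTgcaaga
Igkv12-41: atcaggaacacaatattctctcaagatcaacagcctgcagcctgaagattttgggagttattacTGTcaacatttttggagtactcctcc
Ighv6-6: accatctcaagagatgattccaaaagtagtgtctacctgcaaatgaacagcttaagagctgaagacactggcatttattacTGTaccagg
Iglv1: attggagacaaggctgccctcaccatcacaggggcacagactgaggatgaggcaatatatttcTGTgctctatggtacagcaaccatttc

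The 3 heavy segments lie at chr12:113896408-113896946 (Ighv7-1), chr12:115952538-115953005 (Ighv1-82) and chr12:114434788-114435244 (Ighv6-6). The kappa segments lie at chr6:70058632-70059199 (Igkv7-33) and chr6:69858420-69858884 (Igkv12-41), and the lambda segment Iglv1 at chr16:19085017-19085500. The 3 heavy segments were 57.7% to 75.9% identical to each other, and the 3 light segments 55.8% to 58.7%. Their nearest relatives in the annotation were closer: Ighv7-3 to Ighv7-1 (88.1% identical), Igkv8-30 to Igkv7-33 (79.9%), Ighv1-80 to Ighv1-82 (96.1%), Igkv12-44 to Igkv12-41 (95.4%), Ighv6-5 to Ighv6-6 (92.1%) and Iglv2 to Iglv1 (97.5%). In the library where each segment led, its nearest relative had 0 to 2 counts. The sources used here do not say how the authors' counting treated reads that fit several segments, so the split among close relatives is uncertain.

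**Figure D2:**
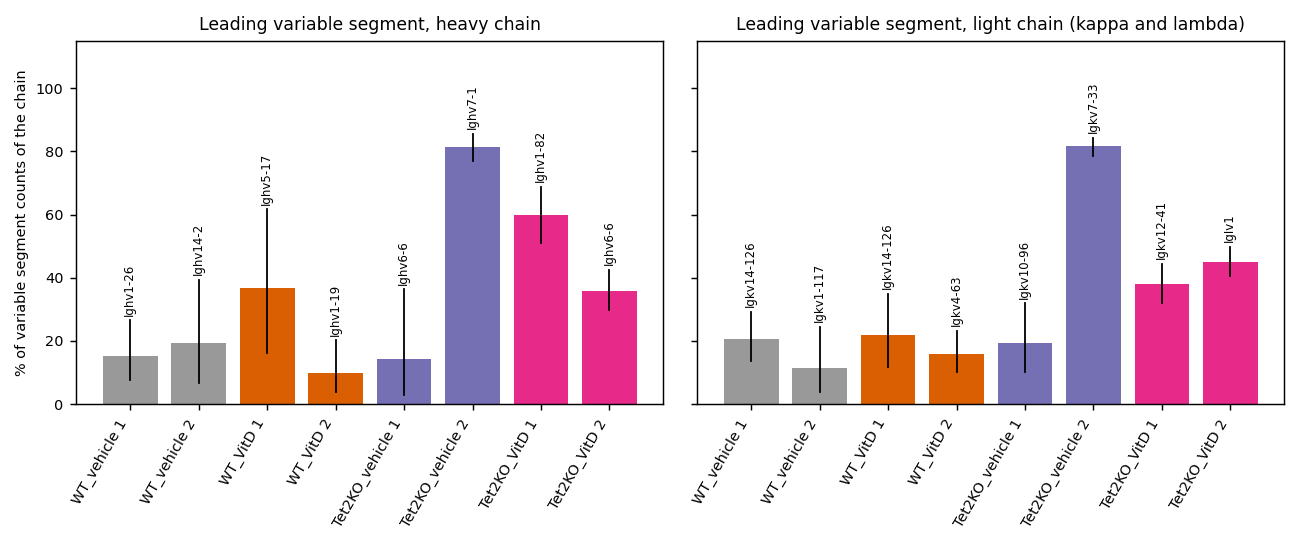
Share of the heavy chain (left) and light chain (right) variable segment counts held by the leading segment of each library, in percent, with exact 95% intervals; the name above each bar is the segment. In 3 libraries labelled Tet2KO the leading heavy segment holds 35.9% to 81.5%, and a different segment leads in each. In WT VitD library 1 it holds 36.8%, of only 19 heavy counts.

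Outside the library it led, each of these segments had at most 22 counts. Igkv7-33 had 0 counts in the other 7 libraries, Ighv7-1 and Ighv6-6 at most 3, Igkv12-41 at most 1 and Iglv1 at most 10. Ighv1-82 had 22 counts in Tet2KO VitD library 2, beside its 75 in library 1 of that group. Tet2KO vehicle library 1 had 21 heavy counts, with Ighv6-6 and Ighv1-42 leading at 3 each, so a share as large as in the other Tet2KO libraries was not seen there. In the WT libraries the leading heavy segment held 9.84% to 36.8%, the highest of these being 7 of 19 counts in WT VitD library 1 (exact 95% interval 16.3 to 61.6). That interval overlapped those of both Tet2KO VitD libraries. The upper bound of 39.35 in WT vehicle library 2 also lay above the lower bound of 29.75 in Tet2KO VitD library 2. For the light chain the WT shares were 11.4% to 21.8% (upper bounds of 23.3 to 35.0), below the lower bounds of 40.5 and 78.5 in the library 2 of each Tet2KO group. The lower bound of 31.9 in Tet2KO VitD library 1 lay below the highest of these WT upper bounds, and the share of 19.3% in Tet2KO vehicle library 1 lay within the WT range. Of these 6 segments, Ighv1-82 alone passed the filter on low counts, and none of their shares was tested between groups.

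The constant regions gave the class of the antibodies. Together the antibody constant regions made up 0.00311% to 0.00682% of all counts in WT libraries and 0.00552% to 0.0155% in Tet2KO libraries. Ighm held 67.9% and 84.2% of the heavy constant counts in WT vehicle, 82.1% and 57.2% in WT VitD, 82.0% and 90.6% in Tet2KO vehicle, and 85.8% and 93.6% in Tet2KO VitD. The 2 lowest Ighm shares belonged to the libraries with the most switched counts, the IgG and IgA classes that B cells make after class switching. WT vehicle library 1 had 118 counts of Ighg2c, against 2 to 34 in the others, and WT VitD library 2 had 100 counts of Ighg1, against 0 to 22. Lambda light chains held 28.5% of the light constant counts in Tet2KO VitD library 2 and 3.12% to 14.7% in the other 7. That library had 241 counts of Iglc1, a lambda constant region that can share a chain with Iglv1, against 0 to 9 elsewhere.

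**Figure D3:**
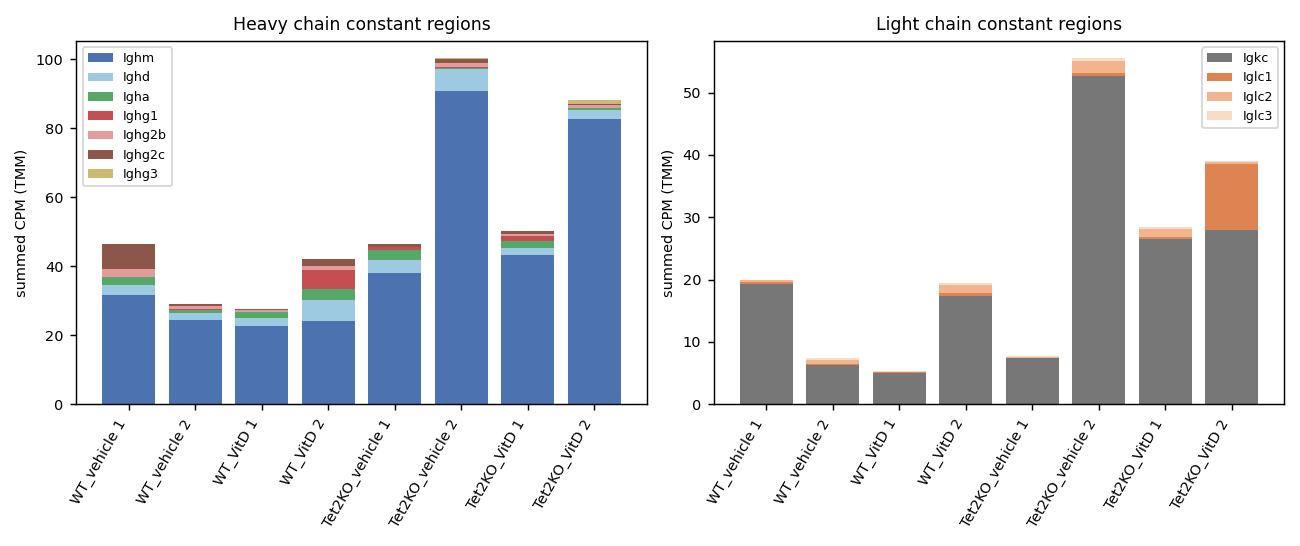
Summed CPM of heavy chain (left) and light chain (right) constant regions in each library, stacked by gene. Ighm makes up 57.2% to 93.6% of the heavy chain counts, and Iglc1 is prominent in Tet2KO VitD library 2 alone.

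The first question of the design is what VitD did in each genotype. In WT, 0 of the 9 genes passed the test, where 20.1% of all genes tested did (1718 higher and 1533 lower), and 0 of the 9 had an unadjusted p under 0.05, where 38% of all genes did. DESeq2 also called 0 of the 9, against 3887 genes in the whole table. The median log2 fold change of the 9 was -0.15, against -0.03 over all genes. In Tet2KO, 0 of the 9 passed, against 0.198% of all genes (29 higher and 3 lower), and 1 of the 9, Pax5, had an unadjusted p under 0.05, against 13.3% of all genes. DESeq2 called 461 genes there and 0 of the 9, and gave 1 of the 9 no adjusted p. The median of the 9 was -0.54 against -0.01 over all genes. Over both genotypes 0 of the 9 passed, against 25.5% of all genes, and 0 of the 9 had an unadjusted p under 0.05, against 41.2%. In that comparison DESeq2 called 4492 genes and 0 of the 9. The intervals leave room for sizeable differences: in WT they reached from 0.68 (Ighm) to 2.42 (Ms4a1) at their upper ends on the log2 scale. With the number range as a covariate, 58 genes were called for VitD in WT in place of 3251. That fit took the range effect from the Tet2KO VitD libraries alone.

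**Figure D4:**
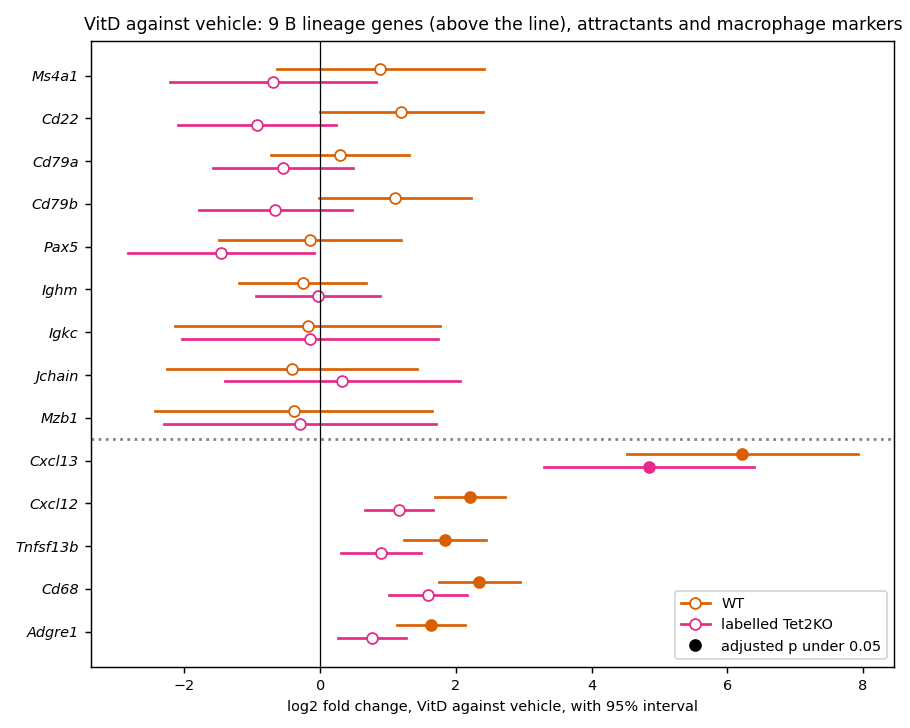
Log2 fold change between VitD and vehicle libraries, with 95% intervals, in WT (orange) and in the libraries labelled Tet2KO (pink); filled points have an adjusted p under 0.05. The 9 genes above the dotted line have no filled point, while Cxcl13 is filled in both genotypes.

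Genes that attract B cells or keep them alive did pass the test. Of 10 tested genes of that list, 5 rose and 1 fell with VitD in WT, against 20.1% of all genes called in either direction, with a median log2 fold change of 1.30 against -0.03 over all genes. Cxcl13, the chemokine that draws B cells into follicles, was at 1.06 and 1.37 CPM in WT vehicle, 63.7 and 118.8 in WT VitD, 2.76 and 3.13 in Tet2KO vehicle, and 139.0 and 31.7 in Tet2KO VitD. All 4 VitD libraries were above all 4 vehicle libraries. The rise of Cxcl13 passed the test in both genotypes, with a log2 fold change in WT of 6.22 (SE 0.752, edgeR's adjusted p = 0.00360) and in Tet2KO of 4.85 (SE 0.681, adjusted p = 0.0417). In WT, Tnfsf13b, which encodes the B cell survival factor BAFF, rose 3.58-fold (adjusted p = 0.00667, edgeR). Cxcl12, a chemokine that holds plasma cells and precursors in marrow, rose 4.62-fold there (adjusted p = 0.00273). Il6, a cytokine that supports plasma cells, also rose in WT, from 0 and 2 counts to 110 and 206. In Tet2KO, Cxcl13 was the 1 gene of the 10 that passed, where 0.198% of all genes did. With the number range as a covariate Cxcl12, Cxcl13 and Il6 still passed in WT, and Tnfsf13b did not (adjusted p = 0.0687, edgeR). The range effect in that fit came from the Tet2KO VitD libraries alone, so it cannot separate the range from VitD in WT. Cxcl13 in Tet2KO had an adjusted p of 0.320 without Tet2KO vehicle library 1, 0.322 without Tet2KO vehicle library 2, 0.111 without WT vehicle library 1 and 0.109 without WT vehicle library 2, with log2 fold changes of 4.76 to 4.94. Its log2 fold change in Tet2KO was 3.43 without Tet2KO VitD library 1 and 5.56 without Tet2KO VitD library 2, and a fit of the 2 Tet2KO groups alone gave an adjusted p of 0.185 (edgeR). In WT, Cxcl13 had an adjusted p of 0.0519 without WT vehicle library 1, and Tnfsf13b of 0.0707 without WT VitD library 2.

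The other genes of B cell biology were taken from the lists, several of which hold genes that myeloid cells also express, such as Fcgr2b, Lyn, Spi1 and Cd52. The counts in WT stand beside the 20.1% of all genes called there in either direction. Of 20 genes of receptor signalling, 9 rose and 0 fell in WT (median log2 0.79), led by Fcgr2b (5.40-fold), Lyn (3.88-fold), Ptpn6 (3.65-fold) and Cd180 (4.85-fold). Of 12 transcription factors, Spi1 (5.77-fold) and Irf8 (4.17-fold) rose and Ebf1 (log2 -1.04) and Bach2 (log2 -1.05) fell. Of 12 tested genes of the B cell surface and homing, 4 rose and 0 fell, among them Cd52 (8.13-fold), Cd37 and Cd40. Of 16 plasma cell genes, 4 rose, among them Cd38 (10.04-fold), Fkbp11 (3.66-fold) and Tnfrsf13b (4.07-fold), and 1 fell, Pim2 (log2 -1.26). No gene of these lists passed the test in Tet2KO, where only 0.198% of all genes did. None of 5 tested germinal centre genes or 6 tested further antibody constant regions passed in either genotype. With the number range as a covariate, none of the genes named here passed in WT: edgeR's adjusted p was 0.0556 for Fcgr2b, 0.0607 for Cd52 and 0.0695 for Spi1, and 0.111 to 0.853 for the others. Leaving out WT vehicle library 1 or WT VitD library 2 also ended many of these calls, but not those of Fcgr2b, Spi1 and Cd52.

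Markers of other cells moved beside these lists. All 8 macrophage markers rose with VitD in WT, and their summed level was 473 to 748 CPM in vehicle libraries and 1207 to 2503 CPM in VitD libraries, with none at 0 in any library. Of 6 tested neutrophil markers 5 rose in WT, and their sum was 4.44 to 14.2 CPM with vehicle and 18.4 to 79.9 CPM with VitD; Ly6g and Mmp8 were at 0 in some libraries. Their part in the changes of Fcgr2b, Lyn, Spi1, Cd52 and the like was not tested. The sum of Ms4a1, Cd22, Cd79a, Cd79b and Pax5 was at 5.28 and 7.80 CPM in WT vehicle, 7.81 and 12.9 in WT VitD, 7.92 and 11.3 in Tet2KO vehicle, and 5.71 and 5.50 in Tet2KO VitD. The VitD libraries were therefore higher in WT (the closest 2 libraries at 7.80 and 7.81 CPM) and lower in Tet2KO, with no overlap within either genotype; this sum was not tested.

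**Figure D5:**
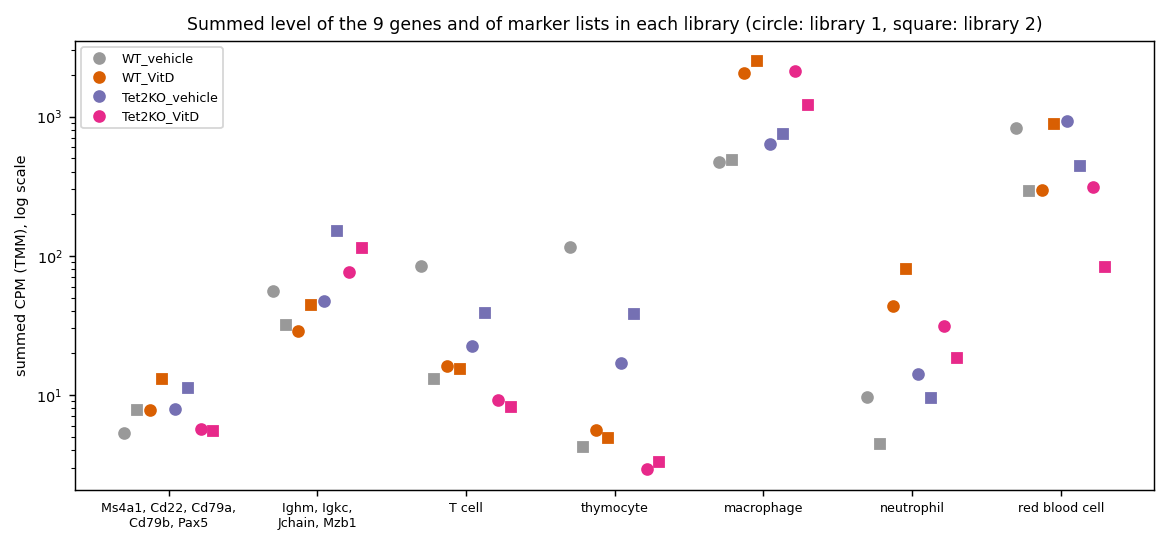
Summed CPM on a log axis of the 9 genes in their 2 sets and of marker lists, per library (circle, library 1; square, library 2; colours, groups). The macrophage sum is higher in all VitD libraries (1207 to 2503) than in all vehicle libraries (473 to 748), whereas the receptor gene sums are higher with VitD in WT (7.81 and 12.9 against 5.28 and 7.80) and lower in Tet2KO (5.50 and 5.71 against 7.92 and 11.3).

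Of the B cell precursor list, 4 of 9 genes were tested, and in WT Dntt and Rag1 fell while Cd93, which endothelium and myeloid cells also express, rose. Rag1, a recombinase of lymphocyte precursors, had 601 and 1 counts in WT vehicle, 2 and 1 in WT VitD, 61 and 180 in Tet2KO vehicle, and 2 and 1 in Tet2KO VitD. WT vehicle library 1 thus held nearly all the Rag1 counts of its group, as it held the highest T cell and thymocyte sums. Without that library the log2 fold change of Rag1 was 0.64 (adjusted p = 0.812, edgeR) and Dntt no longer passed (adjusted p = 0.186); with the number range as a covariate Cd93 was at -0.45 (adjusted p = 0.629). The 8 thymocyte markers include Rag1, Rag2 and Dntt, and 5 of the 8 were at 0 in some library; their part in the precursor result was not tested. In that library the 5 receptor genes summed to 5.28 CPM, the lowest of the 8 sums.

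The second question of the design is the difference between genotypes. Under vehicle, 0 of the 9 genes passed the test, and 0% of all genes did; 2 of the 9, Cd22 and Ighm, had an unadjusted p under 0.05, against 2.97% of all genes (481), and DESeq2 called 18 genes and 0 of the 9. Under VitD, 0 of the 9 passed, and 0% of all genes did; 1 of the 9, Ighm, had an unadjusted p under 0.05, against 10.6% of all genes (1719). DESeq2 called 96 genes under VitD, with Ighm as the 1 of the 9 (log2 1.40, adjusted p = 0.0496 in DESeq2). The median log2 fold change of the 9 was 0.74 under vehicle and -0.77 under VitD, against -0.0045 and 0.03 over all genes. These comparisons share no library with each other, and each shares its libraries with the VitD comparisons.

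Ighm was 2.31-fold higher in Tet2KO than in WT under vehicle (log2 1.20, 95% interval 0.27 to 2.14, unadjusted p = 0.0174, adjusted p = 1 in edgeR) and 2.69-fold higher under VitD (log2 1.43, 0.48 to 2.37, unadjusted p = 0.00772, adjusted p = 0.457). All 4 Tet2KO libraries were above all 4 WT libraries for Ighm, the 1 such gene of the 9, and 0.889% of all genes tested (144) had that order. A comparison of genotype over both treatments was added after the level of Ighm had been seen. In it 0 of the 9 genes passed in edgeR, against 0.00618% of all genes (1 gene, lower), and Ighm alone of the 9 had an unadjusted p under 0.05, against 7.24% of all genes. Ighm was 2.49-fold higher there (log2 1.32, SE 0.294, adjusted p = 0.686 in edgeR and 0.00212 in DESeq2). Within the 5 libraries of the lower number range, Ighm was at 24.3 and 31.6 CPM in WT, both vehicle. In Tet2KO it was at 37.9 to 90.9 CPM there, over both vehicle libraries and VitD library 2, so treatment is mixed into that comparison. Within the 3 of the higher range, all VitD, Ighm was at 22.7 and 24.1 CPM in WT and 43.2 CPM in the 1 Tet2KO library. Without Tet2KO vehicle library 2, the log2 difference under vehicle was 0.44. The macrophage sum was 635.1 and 748.3 CPM in Tet2KO vehicle, above the 473.3 and 487.5 CPM in WT vehicle. Under VitD it was 2127 and 1207 CPM in Tet2KO, against 2059 and 2503 CPM in WT. The part of cell content in the Ighm difference was not tested.

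Igkc and Jchain were also higher on average in Tet2KO without passing the test, and Mzb1 was not. The 6 tested further antibody constant regions had a median log2 difference of -0.53 over both treatments. Over both treatments the log2 difference was 1.26 for Igkc (95% interval -0.11 to 2.63) and 1.12 for Jchain (-0.15 to 2.39), while that of Mzb1 was -0.02 (-1.45 to 1.41). Without Tet2KO vehicle library 2 the differences were 0.25 for Igkc and 0.45 for Jchain. Igkc was below 2 WT libraries in Tet2KO vehicle library 1, and Jchain likewise, so neither gene separated the genotypes. The 5 receptor and identity genes had log2 differences between -0.35 (Cd79a) and 0.21 (Cd22) over both treatments.

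The third question is whether VitD acted differently in the 2 genotypes. The interaction gave 0 of the 9 genes past the threshold, where 0% of all genes passed, and 2 of the 9, Cd22 and Cd79b, had an unadjusted p under 0.05, against 6.21% of all genes (1006). DESeq2 called 18 genes for the interaction and 0 of the 9. The interaction was -2.13 for Cd22 on the log2 scale (SE 0.740, unadjusted p = 0.0185, adjusted p = 0.794 in edgeR) and -1.76 for Cd79b (SE 0.701, unadjusted p = 0.0334, adjusted p = 0.794). The estimates of the other 3 receptor and identity genes were also below 0, at -1.58 for Ms4a1, -1.31 for Pax5 and -0.84 for Cd79a. Those of the antibody genes were 0.22 for Ighm, 0.04 for Igkc, 0.75 for Jchain and 0.09 for Mzb1. A negative interaction was not particular to the receptor genes. The median was -0.88 for macrophage and -1.56 for neutrophil markers, but 0.72 for thymocyte and 0.29 for smooth muscle markers, against 0.02 over all genes. Spi1 (-1.40, unadjusted p = 0.0033 in edgeR) and Cd52 (-1.54, unadjusted p = 0.0042) had smaller p-values than Cd22, and neither passed the adjustment. Cd22 and Cd79b were the 2 genes of the 9 whose VitD and vehicle libraries did not overlap in either genotype and lay in opposite directions; 1.71% of all genes (277) had that arrangement. Both genes rested on 11 to 70 counts a library.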

How the data were processed

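The authors deposited raw read counts per gene symbol for 8 libraries of poly-A enriched RNA, made with a stranded kit per the labels' protocols. The submitters' processing notes name Trimmomatic 0.39, STAR 2.7.8a, featureCounts 2.0.2 and mm10, without an annotation release or strand setting in the sources used here. Without the strand setting, reads of Cd22, Ms4a1 and Pax5 and of antisense genes that overlap them cannot be told apart, and Igkc and Mzb1 overlap genes on their own strand. Groups were taken from the sample titles.

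Counts were fitted over all genes with edgeR 4.0.16 (TMM, filterByExpr, 4 group means, quasi-likelihood test, Benjamini-Hochberg adjustment over 16194 genes, threshold 0.05). CPM values are TMM-scaled. Intervals use the fit's residual and prior degrees of freedom. DESeq2 1.42.0 in R 4.3.3, 2 other filters, other size factors, the replicate block, a covariate for the range of the library's number, fits of the compared groups alone and leaving out each library were alternatives. The fitting code was tested on simulated data. Loci, exon lengths and segment sequences come from GENCODE M21, aligned with Biopython 1.88; all 346 variable symbols had a reference transcript.

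The 9 genes and all gene lists were chosen with earlier results of these data known. Named were the 9 genes and, from each other list, up to 4 called genes by smallest p, otherwise up to 2, plus the 6 genes most correlated with each set; leading segments are those whose share had a lower bound over 25%, a threshold set after the values were seen. A gene of the lists is not reported here.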

Additional observations from a re-analysis of the deposited data

Results flagged for a closer look

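Cd22 and Cd79b had VitD effects of opposite sign in the 2 genotypes, with every VitD library above every vehicle library in WT and below it in Tet2KO. The interaction, which is the difference between the 2 VitD effects, was -2.13 on the log2 scale for Cd22 and -1.76 for Cd79b, and neither passed edgeR's adjustment over all genes (adjusted p = 0.794 for both). Leaving out 1 library at a time, the interaction lay between -2.70 and -1.74 for Cd22 and between -2.24 and -1.18 for Cd79b. Medians below 0 were also seen for macrophage (-0.88) and neutrophil (-1.56) markers, and a median above 0 for thymocyte markers (0.72). In WT the library number range moved with VitD, and with it as a covariate the interaction was -2.69 for Cd22 and -1.60 for Cd79b; its part in the VitD effect within WT cannot be told apart.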

How the results depend on the processing

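Of 102 alternative fits, 97 called 0 of the 9 genes, among them every fit without 1 library, and 5 called 1 or more. DESeq2 called 1 of the 9, Ighm, between genotypes under VitD and 1, again Ighm, over both treatments. Without a filter on low counts edgeR called 2 of the 9 between genotypes under vehicle, where it called 164 of 28001 genes. It called 3 of the 9 under VitD, against 610 genes, and 3 over both treatments, against 304 genes. Ighm and Igkc were among the called genes of the 9. The statistic was below 0 for 1943 to 2359 genes in the 4 comparisons between single groups. Mzb1 had no value under the filter of 1 CPM in 2 libraries.

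Over all genes, DESeq2 called 461 genes for VitD in Tet2KO, 18 and 96 between genotypes under vehicle and VitD, 18 for the interaction and 30 for genotype over both treatments. Without a filter these counts were 1225, 164, 610, 403 and 304. With a covariate for the range of the library's number, 58 genes were called for VitD in WT, 20 in Tet2KO and 114 over both genotypes, 16 between genotypes under VitD, 7 for the interaction and 12 for genotype over both treatments. A fit of the 2 Tet2KO groups alone called 2 genes. The cause of these differences was not tested. In every fit with the range covariate, the range effect came from the Tet2KO VitD libraries alone.

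Without 1 library at a time, calls for VitD in WT were 226 and 594 without WT vehicle library 1 and 2, 1007 and 140 without WT VitD library 1 and 2, 1996 and 2019 without Tet2KO vehicle library 1 and 2, and 4946 and 4927 without Tet2KO VitD library 1 and 2. In Tet2KO they were 8 and 8 without the WT vehicle libraries, 1 and 0 without Tet2KO vehicle library 1 and 2, and 1898 without Tet2KO VitD library 2, and over both genotypes they ranged from 902 (without WT VitD library 2) to 6448 (without Tet2KO VitD library 2). Calls between genotypes ranged from 0 to 674 under VitD and from 0 to 37 for the interaction, both highest without Tet2KO VitD library 1, and from 0 to 12 over both treatments, highest without Tet2KO VitD library 2; under vehicle they were 0 in every such fit.

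Several estimates of the 9 genes changed sign. With that covariate, the log2 fold change with VitD in WT was -0.041 for Ms4a1, -0.032 for Cd79a, 1.33 for Pax5 and 0.68 for Ighm, and in Tet2KO 0.36 for Ighm and -0.093 for Jchain. Over both genotypes it was -0.63 for Ms4a1, -0.033 for Cd79b, 0.19 for Pax5 and 0.52 for Ighm. The interaction was -0.32 for Ighm, and genotype over both treatments gave 0.15 for Ms4a1, -0.077 for Cd22 and 0.14 for Mzb1.

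Without 1 library at a time, the VitD log2 fold change in WT ranged from -0.13 to 0.80 for Cd79a, -0.38 to 0.085 for Pax5, -1.34 to 0.85 for Igkc, -1.28 to 0.82 for Jchain and -1.33 to 0.44 for Mzb1. In Tet2KO it ranged from -1.29 to 0.39 for Ms4a1, -0.58 to 0.73 for Ighm, -0.95 to 1.87 for Igkc, -0.35 to 1.68 for Jchain and -0.97 to 1.08 for Mzb1. Over both genotypes it ranged from -0.20 to 0.64 for Ms4a1, -0.15 to 0.34 for Cd22, -0.33 to 0.13 for Cd79a, -0.066 to 0.46 for Cd79b, -0.41 to 0.24 for Ighm, -0.74 to 0.84 for Igkc, -0.47 to 0.63 for Jchain and -0.81 to 0.34 for Mzb1. Between genotypes under vehicle the range was -0.34 to 1.34 for Ms4a1, -0.29 to 0.58 for Cd79a, -0.78 to 2.27 for Igkc, -0.60 to 1.99 for Jchain and -1.44 to 0.77 for Mzb1, and under VitD it was -0.54 to 0.97 for Mzb1. The interaction ranged from -0.33 to 0.98 for Ighm, -0.99 to 2.06 for Igkc, -0.50 to 2.10 for Jchain and -0.74 to 1.47 for Mzb1. Genotype over both treatments ranged from -0.59 to 0.25 for Ms4a1, -0.077 to 0.38 for Cd22, -0.38 to 0.13 for Cd79b and -0.70 to 0.45 for Mzb1. In such fits the lone library of a group was assumed to vary like the other groups.

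Libraries of different groups that share a replicate number did not deviate together (r = -0.115 to 0.138 over 6 pairs of groups), and none of the 8 correlated best with its own number throughout. With the replicate block, Igkc with VitD in Tet2KO changed sign to 0.15, and no call of the 9 genes changed. Of the 24 calls of other genes named for VitD, 4 were lost with that block: Bach2 (edgeR's adjusted p = 0.0623), Rag1 (0.0716) and Pim2 (0.0534) in WT and Cxcl13 in Tet2KO (0.0533). Of the other genes named for VitD (23 in WT and Cxcl13 in Tet2KO), Cd93 in WT changed sign to -0.45 with the range covariate, Rag1 ranged from -8.56 to 0.64 without 1 library, and 20, Cd93 among them, lost their call under the range covariate. Depth limited Pax5 and Mzb1 most, with as few as 4 and 3 counts in a library.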
